A study of Mus musculus with 16 samples.

Results

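The Notch ligands, receptors and targets described here are 10 genes: the ligands Jag1, Jag2, Dll1 and Dll4, the receptors Notch1, Notch2 and Notch3, and the target genes Hes1, Hes5 and Hey2. They were chosen by symbol, from the Ensembl identifiers of the count files; the rule itself uses no measured value, but the list was drawn up with earlier results of these data known. They are 10 of the 38924 genes in the files, and all 10 were among the 18111 genes with enough counts to be tested. RNA was sequenced from the periaqueductal gray, a midbrain region that takes part in pain control and opioid analgesia. The study asks how morphine tolerance and RGSz1, a regulator of G protein signalling encoded by Rgs20, bear on expression there. The 16 libraries form 4 groups of 4, naive and morphine in wild-type mice and naive and morphine in mice labelled RGSz1 knockout. All are from male mice, and each library pools punches of 2 animals. The naive groups are labelled as such and not as vehicle-treated, and strain, age, dose, time of treatment and the way the knockout was made are not stated in the labels.

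Notch signalling runs between touching cells. A ligand on one cell, of the Jagged or Delta-like family, binds a Notch receptor on its neighbour, and 2 cuts, by an ADAM protease and then by gamma-secretase, free the receptor's intracellular part. That part enters the nucleus, joins the DNA-binding protein RBPJ and switches on Hes and Hey genes, which encode repressors. In the adult brain the pathway is known from blood vessels, where Dll4, Jag1 and Notch1 act in endothelium and Notch3 in pericytes and smooth muscle, and from astrocytes and other glia, in which Hes5 is a classic target.

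For a view of where RBPJ could bind, the 250 bases before the transcription start were read from RefSeq (GRCm38.p6) for the members found there, 9 of 10; Hes1 was the other. The RBPJ core TGGGAA, or its reverse complement TTCCCA, was in the windows of 2 members, Hes5 and Hey2, and in 21.5% of 27025 mouse promoters of the same length. Those windows are shown because one of these targets, Hes5, was called lower after morphine on average over both genotypes and the other, Hey2, was not; the difference between them was not tested. Capitals mark the core, read 5′ to 3′ on the gene's strand; Hes5 lies on the plus strand (chr4:154960673-154960922) and Hey2 on the minus strand (chr10:30842784-30843033).
Hes5: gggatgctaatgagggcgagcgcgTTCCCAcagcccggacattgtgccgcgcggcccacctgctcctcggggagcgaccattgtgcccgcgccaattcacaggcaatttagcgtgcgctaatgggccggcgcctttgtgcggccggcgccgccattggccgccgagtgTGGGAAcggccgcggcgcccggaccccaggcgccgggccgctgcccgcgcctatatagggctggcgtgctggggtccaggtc
Hey2: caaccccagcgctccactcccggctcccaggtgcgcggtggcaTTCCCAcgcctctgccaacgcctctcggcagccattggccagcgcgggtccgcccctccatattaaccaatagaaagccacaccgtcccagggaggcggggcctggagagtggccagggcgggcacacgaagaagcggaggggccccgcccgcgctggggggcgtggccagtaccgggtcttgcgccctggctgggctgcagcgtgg
The 2 Hes5 matches begin 226 and 82 bases before the start, and the Hey2 match 207 bases before it. Both windows are GC-rich, at 71.6%. The N box CACNAG (reverse complement CTNGTG), to which Hes repressors bind, was in the windows of 4 members, Notch1, Notch2, Notch3 and Dll4, and in 36.7% of the promoters. The Jag1 window held neither motif. A match describes letters only, not a bound site.

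Totals over genes ran from 19.1 to 55.0 M counts per library, a depth at which the members held from 17 counts (Dll4) upward in the shallowest libraries. Neuronal Snap25 stood at 2018 to 2461 CPM (counts per M counts of the library, TMM-scaled), and summed midbrain markers lay between 100.6 and 128.8 CPM. Single midbrain markers differed more than their sum. Pax7 ran from 11.0 to 19.95 CPM in wild-type naive and from 7.933 to 9.343 CPM in wild-type morphine libraries. En1 ran from 2.413 to 6.294 CPM in knockout naive and from 9.332 to 23.71 CPM in knockout morphine libraries. After morphine 3 of the 6 estimates were above 0 and 3 below in each genotype. The gene targeted in the knockout, Rgs20, ran from 11.42 to 14.37 CPM over all libraries, with overlapping ranges under the genotype labels. It was at 12.8 ± 0.824 CPM in wild-type naive, 12.6 ± 0.95 in knockout naive, 13.1 ± 1.04 in wild-type morphine and 12.1 ± 0.667 in knockout morphine libraries (SD, n = 4 each). The labels do not describe the knockout allele and counts over the whole gene do not show it, so the genotype below is that of the label. Wild-type naive 2 and knockout morphine 3 stood apart in summed markers of meningeal fibroblasts, 514.7 and 371.6 CPM against 57.05 to 149.4 CPM in the other libraries, and results that move without them are given both ways.

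Ligand levels differed widely per length of exon, which is the scale for setting one gene against another. In wild-type naive libraries Jag2 was highest, at 8.55 ± 0.392 CPM per kb (SD, n = 4), and Dll4 lowest, at 0.359 ± 0.0772 CPM per kb. Between them stood Notch3 at 4.91 ± 0.470, Hes5 at 3.98 ± 0.937, Notch2 at 3.39 ± 0.919, Hes1 at 2.77 ± 0.302, Jag1 at 2.63 ± 0.293, Notch1 at 2.61 ± 0.207, Dll1 at 1.97 ± 0.241 and Hey2 at 1.15 ± 0.133 CPM per kb. Jag2 and Notch3 did not overlap, nor did Notch1 and Dll1, Dll1 and Hey2, or Hey2 and Dll4; the ranges of the other neighbours in that order overlapped. In wild-type morphine libraries Jag1 stood lower, at 1.37 ± 0.125 CPM per kb, below Dll1 (1.98 ± 0.133) and Notch1 (1.73 ± 0.225). The same order of these genes was seen in knockout morphine libraries, where Jag1 stood at 1.46 ± 0.230, Notch1 at 1.89 ± 0.306 and Dll1 at 2.19 ± 0.250 CPM per kb. The ranges of Dll1 and Notch1 overlapped in both morphine groups. Those of Notch1 and Jag1 overlapped in knockout morphine but not in wild-type morphine libraries. Jag2, Notch3, Hey2 and Dll4 kept ranks 1, 2, 9 and 10 in all 4 groups. The unit weighs all exons of a gene alike, so a gene with transcripts of unequal length is placed only roughly.

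**Figure D1:**
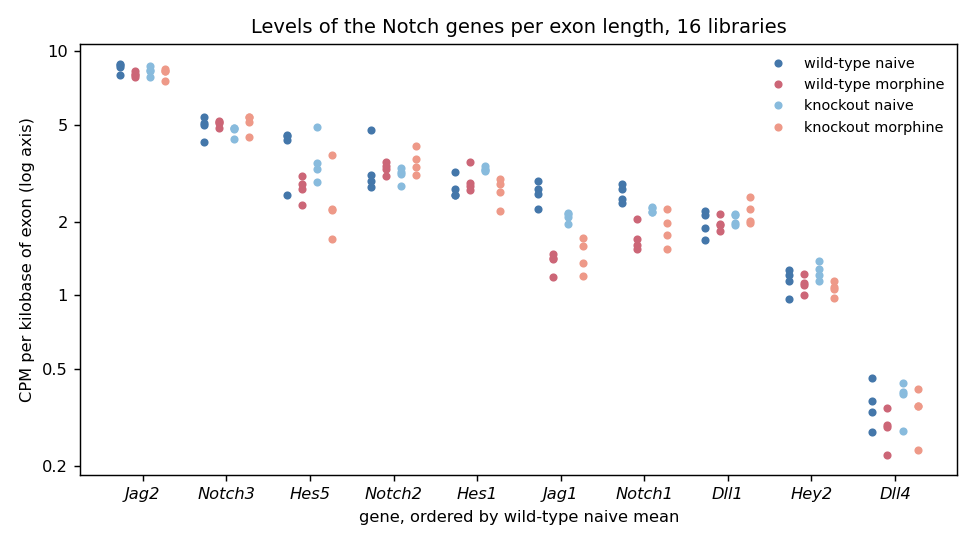
Level of each Notch gene in CPM per kilobase of exon (log axis), 1 point per library, coloured by group and ordered by the wild-type naive mean. Jag2 is highest and Dll4 lowest in every group, and Jag1 lies lower in both morphine groups.

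Of the ligands, Jag1 fell after morphine in wild-type mice, and of the receptors, Notch1 did. A gene is called where the adjusted p of edgeR's quasi-likelihood test, taken over all tested genes, is under 0.05. They make 2 of 10 members called, both lower, against 4.41% of all tested genes called in either direction, 2.07% lower and 2.34% higher. At an unadjusted p under 0.05 the count was 3 of 10, the third being Hes5, against 3637 of all 18111 tested genes. Over the 10 members 3 estimates were above 0 and 7 below, with a median log2 fold change of -0.07 against -0.01 over all tested genes.

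Jag1 (chr2:137081456-137116644, minus strand), a ligand of endothelium, smooth muscle and astrocytes, stood at 15.1, 17.2, 15.9 and 13.1 CPM in the 4 wild-type naive libraries. After morphine the values were 8.18, 6.94, 8.27 and 8.59 CPM. Every morphine library lay below every naive one. The log2 fold change was -0.94 ± 0.10 (SE; 95% interval -1.15 to -0.73), 1.91-fold lower, with an edgeR adjusted p of 3.10e-05. Jag1 was called in all 8 fits that left out 1 library, with an adjusted p of up to 0.000263, and under the other alternatives its value ran from -0.94 to -0.88.

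Notch1 (chr2:26457903-26516663, minus strand), the receptor best known from neural progenitors and arteries, stood at 35.3, 38.6, 40.5 and 34.1 CPM in wild-type naive libraries and at 24.3, 23.0, 29.2 and 22.0 CPM in wild-type morphine ones. Again the groups did not overlap, and 1.51-fold separated them. Its log2 fold change was -0.59 ± 0.10 (95% interval -0.80 to -0.38; edgeR adjusted p = 0.00309). The kit does not keep the strand, and Notch1 shares exon sequence with genes on the other strand, 0610009E02Rik (473 counts over all libraries) and Gm13568 (4 counts). Jag1 and Notch1 were the only 2 of the 10 members whose wild-type naive and morphine libraries did not overlap, against 5.09% of all tested genes lower and 5.96% higher without overlap. The exact permutation p, two-sided, was 0.0286 for each, the smallest that 4 against 4 can give.

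Neither of the other receptors among the members was called. Notch3 (chr17:32120820-32166852), the receptor of pericytes and smooth muscle, stood at 34.36 to 43.27 CPM in wild-type naive libraries and 39.16 to 41.72 CPM in wild-type morphine ones, with a log2 fold change of 0.04 ± 0.07 (95% interval -0.10 to 0.18). It shares exon sequence with Gm17276 on the other strand (2641 counts over all libraries, against 23773 for Notch3). Notch2 (chr3:98013527-98150361) stood at 31.7, 51.3, 33.5 and 29.8 CPM and then at 36.6, 33.1, 38.0 and 35.6 CPM. The high value was that of wild-type naive 2, the library with the most meningeal fibroblast signal, whose part in it was not tested. With that library the Notch2 difference was -0.04 ± 0.14, and without it 0.18, not called in either case.

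The remaining ligands showed small differences with intervals that reach 0. Jag2 (chr12:112907819-112929776), the member with the highest level, went from 59.6 ± 2.73 to 55.9 ± 1.47 CPM (SD, n = 4), a log2 fold change of -0.09 ± 0.04 (edgeR adjusted p = 0.249). Dll1 (chr17:15367354-15376872), a Delta-like ligand of neural progenitors, was at 8.32 ± 1.02 and 8.33 ± 0.560 CPM, and its 95% interval ran from -0.19 to 0.20. Dll1 shares exon sequence with A930024N18Rik on the other strand, which held 2388 counts over all libraries against 5115 for Dll1, and reads of the shared stretch cannot be told apart. Dll4 (chr2:119325784-119335962), the ligand of sprouting endothelium, was at 1.38 ± 0.297 and 1.11 ± 0.197 CPM, with an interval from -0.73 to 0.12. Dll4 held 17 to 91 counts per library, and the Notch1 difference of -0.59 lies inside its interval. Dll4 shares exon sequence with Gm14207 on the other strand (74 counts over all libraries, against 804 for Dll4).

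Among the targets, Hes5 (chr4:154960923-154962371), whose promoter holds 2 RBPJ cores, had the largest estimate. It stood at 6.12, 6.16, 5.91 and 3.52 CPM in wild-type naive libraries and at 3.18, 3.88, 4.19 and 3.70 CPM in wild-type morphine ones, so that wild-type naive 4 lay inside the morphine range. The log2 fold change was -0.53 ± 0.22 (95% interval -1.01 to -0.06), with an edgeR adjusted p of 0.195. Hes5 shares exon sequence with Gm20421 on the other strand (85 counts over all libraries, against 2739 for Hes5). Hes1 (chr16:30064384-30067796) was at 5.64 ± 0.615 and 6.05 ± 0.749 CPM (SD, n = 4), 0.10 ± 0.10 on the log2 scale, and Hey2 (chr10:30832359-30842801), a target in arteries, at 5.27 ± 0.611 and 5.12 ± 0.413 CPM, -0.04 ± 0.10. Neither was called.

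**Figure D2:**
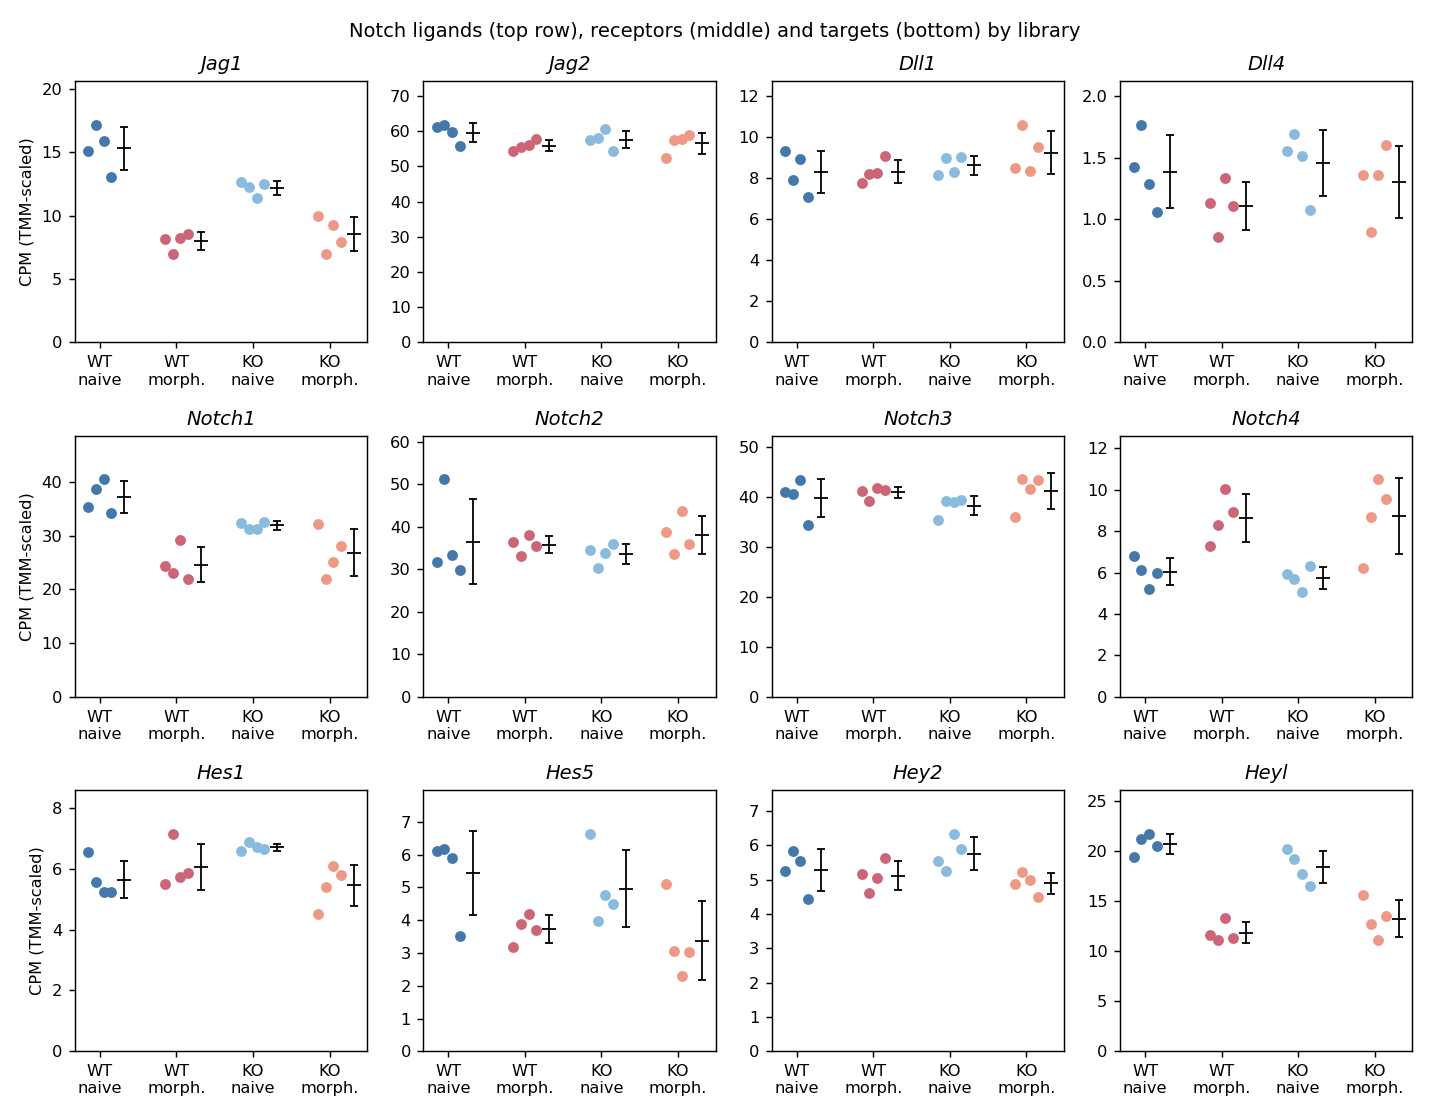
TMM-scaled CPM of ligands (top), receptors (middle) and targets (bottom), 1 point per library, with the mean and SD of each group of 4 beside the points; each panel has its own axis from 0. Jag1, Notch1 and Heyl sit lower in wild-type morphine than in wild-type naive libraries with no overlap, and Notch4 sits higher.

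In the libraries labelled knockout, Jag1 fell again and no other member passed the test. That is 1 of 10 members, against 11.5% of all tested genes called in either direction, 5.83% lower and 5.67% higher; 5 of 10 members had an unadjusted p under 0.05, against 4612 of 18111 genes. The median over the 10 members was -0.18 on the log2 scale, against 0.00 over all tested genes. Jag1 went from 12.6, 12.2, 11.4 and 12.5 CPM to 9.97, 6.98, 9.25 and 7.91 CPM. The groups did not overlap, and the log2 fold change was -0.51 ± 0.10 (95% interval -0.73 to -0.30; edgeR adjusted p = 0.00408), 1.43-fold. Leaving out 1 library gave -0.60 to -0.44, all called.

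Hes1 and Hey2 were also lower in every knockout morphine library than in every knockout naive one. Together with Jag1 they make 3 of 10 members, against 8.78% of all tested genes lower and 8.27% higher without overlap. Hes1 stood at 6.59, 6.86, 6.70 and 6.65 CPM in knockout naive libraries and at 4.52, 5.39, 6.09 and 5.80 CPM in knockout morphine ones, with a log2 fold change of -0.30 ± 0.10 (edgeR adjusted p = 0.0704). Without knockout morphine 3 it was -0.35 and called, with an adjusted p of 0.0452. Hey2 stood at 5.54, 5.25, 6.34 and 5.90 CPM and then at 4.87, 5.23, 4.98 and 4.48 CPM, a log2 fold change of -0.24 ± 0.10 (edgeR adjusted p = 0.134).

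For Notch1 and Hes5 the outcome of the test turned on 1 library. Notch1 was at 32.4, 31.3, 31.2 and 32.6 CPM in knockout naive libraries and at 32.2, 22.0, 25.1 and 28.1 CPM in knockout morphine ones. Its log2 fold change was -0.24 ± 0.10 (edgeR adjusted p = 0.153). Hes5 was at 6.64, 3.96, 4.76 and 4.50 CPM and then at 5.09, 3.07, 2.31 and 3.04 CPM, -0.54 ± 0.23 (edgeR adjusted p = 0.151). Knockout morphine 1 was the highest of its group for both genes. Without it Notch1 was at -0.34 (adjusted p = 0.0382) and Hes5 at -0.82 (adjusted p = 0.0254), and 3 members were called.

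The other members of the knockout comparison had log2 fold changes between -0.13 (Dll4) and 0.18 (Notch2), none called. Notch3 was at 38.2 ± 1.87 and 41.1 ± 3.56 CPM, Jag2 at 57.6 ± 2.51 and 56.6 ± 2.97 CPM, and Dll1 at 8.64 ± 0.455 and 9.25 ± 1.05 CPM (SD, n = 4). Their 95% intervals were -0.04 to 0.25, -0.12 to 0.07 and -0.10 to 0.29. Notch2 was at 33.6 ± 2.39 and 38.1 ± 4.41 CPM, with its highest value, 43.9 CPM, in knockout morphine 3.

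**Figure D3:**
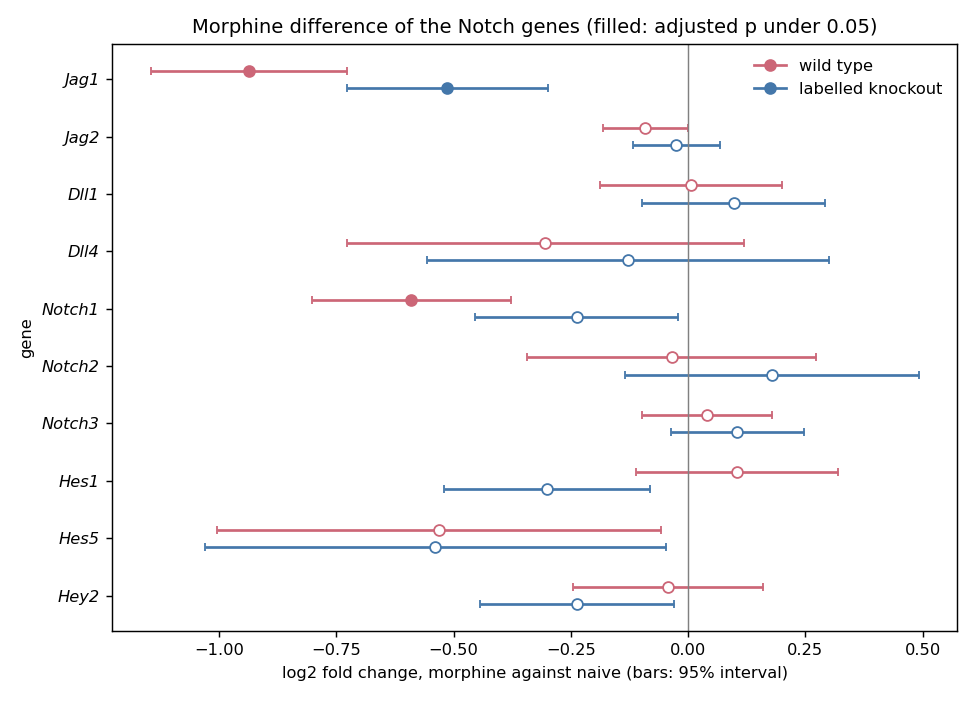
Log2 fold change of morphine against naive for the 10 Notch genes, with the 95% interval, in wild-type mice and in those labelled knockout; filled points passed an adjusted p of 0.05. Jag1 is filled in both genotypes and Notch1 in wild type, and the Jag2, Dll1 and Notch3 intervals lie close to 0.

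Averaged over both genotypes, 3 of 10 members fell after morphine, Jag1, Notch1 and Hes5, against 17.1% of all tested genes called in either direction, 8.03% lower and 9.02% higher. The log2 differences were -0.72 ± 0.07 for Jag1 (edgeR adjusted p = 4.20e-06), -0.41 ± 0.07 for Notch1 (0.00115) and -0.54 ± 0.16 for Hes5 (0.0311). The Jag1 and Notch1 calls held in all 16 fits that left out 1 library. The Hes5 call was lost in 10 of the 16, with an adjusted p of up to 0.0644: the libraries were naive 1, 2 and 3 and morphine 1, 2 and 4 of the wild type, and naive 1 and morphine 2, 3 and 4 of the knockout. Notch2 was at 0.07 ± 0.10 and not called, but without wild-type naive 2 it was at 0.18 and called higher (adjusted p = 0.0300).

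Between genotypes, no member differed by the test. In naive mice 0 of 10 members were called by edgeR, by DESeq2 or by limma-voom, against 0.906% of all tested genes by edgeR (0.442% higher and 0.464% lower), and 3 had an unadjusted p under 0.05, as did 2345 of 18111 genes. These were Jag1, at -0.33 ± 0.10 in knockout against wild type (edgeR adjusted p = 0.135), Notch1, at -0.22 ± 0.10 (0.348), and Hes1, at 0.25 ± 0.10 (0.284). For all of them the naive libraries of the genotypes did not overlap: Jag1 ran from 11.38 to 12.63 CPM in knockout and 13.08 to 17.17 CPM in wild type. This count, 2 of 10 lower and 1 of 10 higher, stands against 3.99% and 4.14% of all tested genes. After morphine 0 of 10 members were called by these tools, 0 had an unadjusted p under 0.05, and 0 were without overlap. Of all tested genes 0.53% were called, 0.254% higher and 0.276% lower, and 3.02% were lower and 2.25% higher without overlap. The log2 difference of Jag1 there was 0.09 ± 0.10, with a 95% interval from -0.13 to 0.31.

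The test of whether the morphine difference itself depended on genotype called 0 of 10 members by edgeR, DESeq2 or limma-voom. It called 0% of all tested genes by edgeR, and 3 members had an unadjusted p under 0.05, as did 2200 of 18111 genes. The knockout minus wild-type difference of the log2 fold changes was 0.42 ± 0.14 for Jag1 (95% interval 0.12 to 0.72; edgeR adjusted p = 0.287), 0.35 ± 0.14 for Notch1 (0.346) and -0.40 ± 0.15 for Hes1 (0.299). For none of them was a dependence on genotype shown. These comparisons share their naive and morphine libraries with those above.

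The rest of the pathway was followed through 50 genes listed by role, all tested. In wild type 7 of 50 were called after morphine, 1 higher and 6 lower, against the same 4.41%, and in knockout 9 of 50, 3 higher and 6 lower, against 11.5%. Their medians were -0.04 and -0.05 on the log2 scale. Averaged over both genotypes 12 of 50 were called, 3 higher and 9 lower, against 17.1% of all tested genes. The lower ones were Heyl, Hey1, Dtx1, Dtx3, Dtx4, Maml1, Hdac1, Spen and Rfng, and the higher ones Notch4, Lfng and Dlk1. Each of these averaged calls held in all 16 fits without 1 library and in the 7 other alternatives. Leaving out 1 library moved the wild-type count, to 1 when wild-type naive 3 was left out, to 2 for wild-type naive 2 and for wild-type morphine 1 and 2, and to 3 for wild-type morphine 3 and 4. The knockout count was 4 without knockout naive 2 and 5 without knockout morphine 2. Between genotypes in naive mice edgeR called 0 of 50, against 0.906% of all tested genes. An unadjusted p under 0.05 was seen for 6 of 50, against 2345 of 18111 genes. DESeq2 called 1 of 50, and 376 over all tested genes.

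Among the 6 other targets, Heyl fell in both genotypes. Heyl encodes a Hey-family repressor known from smooth muscle. It stood at 19.4, 21.2, 21.7 and 20.5 CPM in wild-type naive libraries and at 11.6, 11.1, 13.3 and 11.3 CPM in wild-type morphine ones, with no overlap. The log2 fold change was -0.81 ± 0.09 (edgeR adjusted p = 3.10e-05). In knockout libraries it went from 20.2, 19.2, 17.7 and 16.5 CPM to 15.6, 12.7, 11.1 and 13.5 CPM, -0.47 ± 0.09 (edgeR adjusted p = 0.00275). Hey1 fell in knockout, from 39.1 ± 0.913 to 35.0 ± 1.63 CPM (-0.16 ± 0.04; edgeR adjusted p = 0.0134), a call lost without knockout naive 2 or knockout morphine 4. Hes6, Hes7, Hes3 and Nrarp, which encodes a feedback inhibitor of Notch, were not called in either genotype. Hes7 and Hes3 held few counts, 298 and 212 over all libraries. That makes 1 of 6 called in wild type, against 4.41% of all tested genes, and 2 of 6 in knockout, against 11.5%.

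Notch4, the endothelial receptor that completes the family, moved the other way from Notch1. Its values were 6.80, 6.12, 5.21 and 6.00 CPM in wild-type naive libraries and 7.30, 8.29, 10.0 and 8.93 CPM in wild-type morphine ones. Every morphine library was above every naive one, by 0.53 ± 0.13 on the log2 scale (edgeR adjusted p = 0.0329), a call lost when 1 library was left out in 5 of 8 cases (naive 2 and 3; morphine 2, 3 and 4). In knockout libraries it went from 5.94, 5.67, 5.04 and 6.29 CPM to 6.23, 8.67, 10.5 and 9.56 CPM, a log2 fold change of 0.60 ± 0.14 (edgeR adjusted p = 0.00982), called without any 1 library. Averaged over genotypes it was 0.56 ± 0.10 higher (edgeR adjusted p = 0.000753).

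Genes that act on ligands and receptors were called in part. Of the 4 ubiquitin ligases of the ligands, edgeR called 0 after morphine in either genotype, with 0 at an unadjusted p under 0.05 in wild type and 1 in knockout. Of the 5 glycosylation genes, Lfng, a Fringe enzyme that tunes which ligands a receptor answers, rose in knockout from 32.1 ± 1.65 to 38.2 ± 1.73 CPM (SD, n = 4; 0.25 ± 0.06, edgeR adjusted p = 0.00888), and its relative Rfng fell by 0.14 there (edgeR adjusted p = 0.0336), a call lost in 6 of the 8 fits without 1 library. That is 2 of 5 called in knockout against 11.5% of all tested genes. In wild type edgeR called 0 of 5, with 2 at an unadjusted p under 0.05, and Lfng went from 36.6 ± 2.61 to 40.8 ± 2.56 CPM. Averaged over both genotypes 2 of 5 were called, against 17.1% of all tested genes. These were Lfng at 0.20 (edgeR adjusted p = 0.00187) and Rfng at -0.13 (0.00577), called in all 16 fits without 1 library. Of the 4 other ligand-like genes, Dlk1, a non-canonical ligand, rose in knockout from 122.2 ± 2.65 to 176.2 ± 26.7 CPM (0.53 ± 0.15, edgeR adjusted p = 0.0420), a call lost in 6 of the 8 fits without 1 library. That makes 1 of 4 called in knockout, against 11.5% of all tested genes, and 0 of 4 in wild type.

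Of the 9 cleavage genes, 1 was called in knockout, against 11.5% of all tested genes, and 0 in wild type. The called gene was Adam17, a protease of the receptor, which fell by 0.16 on the log2 scale (edgeR adjusted p = 0.0310). That call was lost in 6 of the 8 fits without 1 library. Adam17 was also the 1 gene of the 50 called between genotypes after morphine, against 0.53% of all tested genes. It was at 29.1 ± 1.36 CPM in wild-type and 24.5 ± 0.991 CPM in knockout morphine libraries, -0.25 ± 0.05 (edgeR adjusted p = 0.0144), a call lost without knockout morphine 2 or 4. In naive libraries Adam17 was at 29.35 ± 0.46 CPM in wild type and 27.3 ± 1.47 CPM in knockout, not called. The gene lies on chromosome 12 (chr12:21323509-21373632). Whether the difference comes from a strain segment there was not tested. Adam10 and the gamma-secretase subunit genes Psen2, Ncstn, Aph1a, Aph1b, Aph1c and Psenen were not called. Of the 9 turnover genes and inhibitors, 3 Deltex genes fell in wild type, Dtx4 (-0.19 ± 0.04), Dtx1 (-0.15 ± 0.03) and Dtx3 (-0.13 ± 0.03), and the ligase Itch fell by 0.15 in knockout. These calls were lost without 1 library in 4, 3, 7 and 3 of 8 fits. They make 3 of 9 called in wild type, against 4.41% of all tested genes, and 1 of 9 in knockout, against 11.5%. Averaged over both genotypes the 3 Deltex genes were called lower in all 16 fits without 1 library, and Itch was not called.

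Of the 12 nuclear genes, the coactivator Maml1 and the histone deacetylase Hdac1 fell in wild type, by 0.25 and 0.26 on the log2 scale, and the corepressor Spen fell by 0.16 in knockout. These calls were lost without 1 library in 5, 7 and 4 of 8 fits. They make 2 of 12 called in wild type, against 4.41% of all tested genes, and 1 of 12 in knockout, against 11.5%. Averaged over both genotypes Maml1, Hdac1 and Spen were called lower in all 16 fits without 1 library. Rbpj, the DNA-binding core of the complex, was at 26.2 ± 0.728 CPM in wild-type naive and 26.5 ± 0.617 CPM in wild-type morphine libraries (SD, n = 4) and was not called in any comparison.

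**Figure D4:**
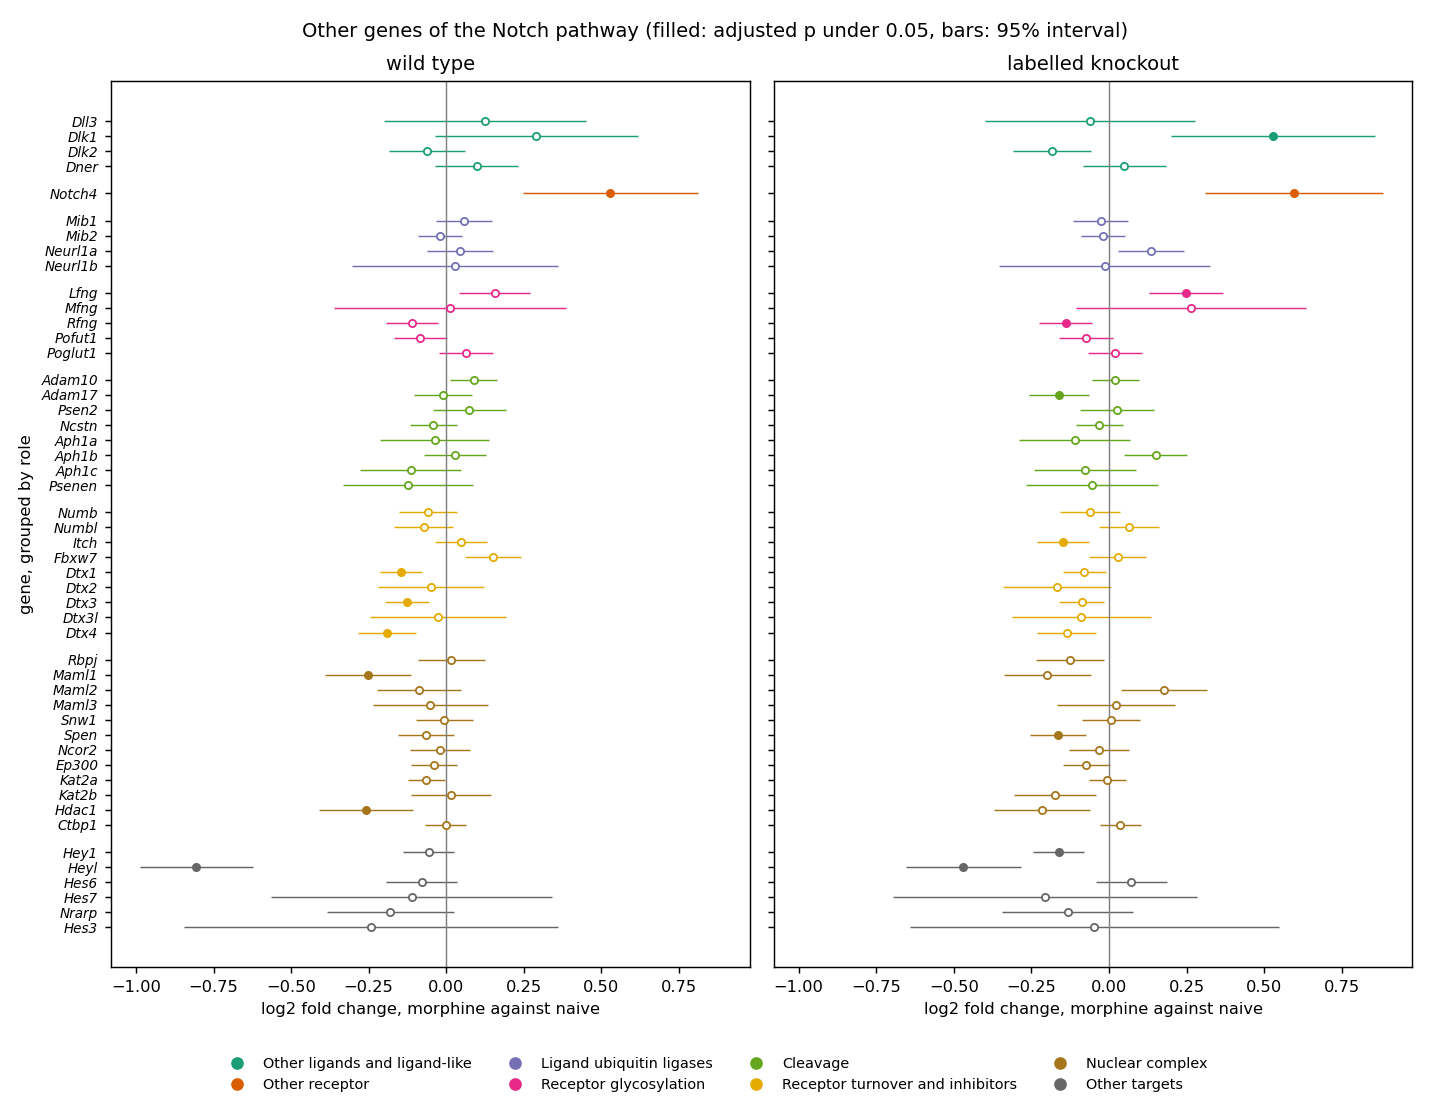
Log2 fold change of morphine against naive with its 95% interval for other Notch pathway genes, grouped by role, in wild type (left) and in libraries labelled knockout (right); filled points passed an adjusted p of 0.05. Heyl stands lowest of the called genes and Notch4 highest in wild type, and most of the others lie near 0.

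Markers of the cells that carry these genes also moved. In punches of whole tissue, fewer cells of a type and less RNA per cell cannot be told apart. Of 10 endothelial markers, 4 were called in wild type, against 4.41% of all tested genes, 3 lower, with Cldn5 at -1.09 ± 0.16 and Tek at -0.42 ± 0.11, and 1 higher. Their summed level ran from 228.2 to 279.9 CPM in wild-type naive and from 215.7 to 234.8 CPM in wild-type morphine libraries. Of 10 pericyte and smooth muscle markers Pdgfrb fell, by 0.73, while Rgs5 was at 0.02 ± 0.10, and the sums ran from 188.4 to 302.6 CPM and from 184.7 to 197.1 CPM. The highest was wild-type naive 2, and the other wild-type naive libraries lay between 188.4 and 234.9 CPM. In knockout these sums ran from 204.2 to 244.7 CPM before and 168.2 to 281.0 CPM after morphine. The highest there was knockout morphine 3, and the other knockout morphine libraries lay between 168.2 and 193.9 CPM. None of the 6 arterial endothelial markers was called by edgeR in wild type (2 at an unadjusted p under 0.05), and their sums overlapped, 23.46 to 29.36 CPM against 25.51 to 29.54 CPM. No marker stood at 0 in all libraries.

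Glial markers were counted in the same way. Of 10 astrocyte markers, Sox9 was the 1 called in wild type, against 4.41% of all tested genes, at -0.99 ± 0.13, with sums of 4534 to 4850 CPM before and 4467 to 4693 CPM after morphine. The microglial list had 1 of 10 called, Cx3cr1 at -0.61 ± 0.07, with sums of 217.6 to 265.5 CPM and 199.7 to 217.5 CPM that did not overlap. Of 6 markers of oligodendrocyte precursors 2 were called lower, Sox10 at -0.65 ± 0.10 and Cspg4 at -0.28 ± 0.07, with sums of 277.6 to 310 CPM and 254.8 to 278.4 CPM. Over these 6 markers 2 estimates were above 0 and 4 below, with a median of -0.04. In knockout libraries, against 11.5% of all tested genes called, 6 of 10 endothelial markers were called, 5 lower, and 2 of 10 pericyte and 2 of 10 astrocyte markers were called, all lower. There 3 of 10 microglial markers were called lower, with sums of 231.1 to 254.2 CPM before and 202 to 229.4 CPM after morphine. Of the oligodendrocyte precursor list 1 of 6 was called lower, Sox10 at -0.89 ± 0.11, with sums of 297 to 316.4 CPM and 247.5 to 291.7 CPM. Over that list 2 estimates were above 0 and 4 below, with a median of -0.17. Neither the microglial nor the precursor sums overlapped between the knockout groups. The knockout morphine group also had 7 of 10 oligodendrocyte markers lower, with sums of 10260 to 11820 CPM before and 7126 to 9071 CPM after morphine, and all 10 dorsal raphe serotonin markers higher, with sums of 146.8 to 390.1 CPM and 577.9 to 1781 CPM. In wild type all 10 serotonin estimates were also above 0, with 0 called. The wild-type sums overlapped, at 253.7 to 901.2 CPM before and 718.7 to 938.6 CPM after morphine. Averaged over both genotypes 9 of the 10 serotonin markers were called higher, against 17.1% of all tested genes. In that comparison 7 of 10 microglial markers were called lower, and of 10 endothelial markers 6 lower and 1 higher. There 4 of 10 oligodendrocyte, 2 of 6 precursor, 2 of 10 astrocyte, 1 of 10 pericyte and 1 of 6 arterial markers were called lower. In naive mice all 10 serotonin estimates were lower in knockout than in wild type, with 0 called. The part of these cell types in the Notch gene differences was not tested.

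No pair of members co-varied past the threshold within groups. Over the 16 libraries, deviations of log2 CPM from the group means gave 28 positive correlations among 45 pairs, with a median r of 0.24, and 0 pairs had an adjusted permutation p under 0.05. The highest was that of Notch3 and Dll1 (r = 0.71, rho = 0.78, permutation p = 0.0145, adjusted p = 0.336; r = 0.55 without the 2 libraries farthest from the median). Jag1 and Notch1 had r = 0.61 and rho = 0.54 (permutation p = 0.0716, adjusted p = 0.458; r = 0.52 without the 2 farthest).

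By the same measure, searched over 13183 genes and given as a description since the highest of so many are picked, the genes most like Jag1 were Ctns (r = 0.92), Tyrobp (0.92) and Fgd2 (0.91). For Notch1 they were Lsm10 (0.91), Acss1 (0.89) and Kat6b (0.89). For Hes5 they were Nup205 (0.92), Nrarp (0.92), which is itself a Notch target, and Gli1 (0.91), a transcription factor of the Hedgehog pathway. Without the 2 libraries farthest from the median r was 0.91 for Hes5 and Nrarp and 0.86 for Jag1 and Ctns.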

How the data were processed

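PolyA RNA of periaqueductal gray punches was sequenced in 16 libraries. The deposited files hold whole-number counts per gene; per the submitters' processing notes they were made with HTSeq on mm10, and limma is named. The TruSeq RNA v2 kit, per the labels' protocols, does not mark strand. The sources used here do not give the aligner, the annotation used for counting or its strand option. Reads that HTSeq assigned to no gene, 38.2 to 40.6% of each library, were left out. Groups came from the genotype and treatment labels, which call the libraries biological replicates; no pair within a group agreed within sampling noise (smallest chi-square per gene 3.58). Gene names and coordinates are those of GENCODE M21, on GRCm38, the assembly of mm10 (37607 of 38924 identifiers matched).

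After edgeR's filterByExpr (minimum count 10) and TMM scaling, 1 robust quasi-likelihood model (edgeR 4.0.16 under R 4.3.3) held all 16 libraries and gave 6 comparisons. Calls are Benjamini-Hochberg adjusted p under 0.05. Log2 fold changes carry their SE, and CPM the SD over libraries; correlations used log2 CPM with a prior count of 2 and 100000 permutations within groups. DESeq2 1.42.0 and limma-voom (limma 3.58.1) were alternatives, beside DESeq2's size factors, other filters (none, or at least 1 CPM in 8 libraries), only the groups compared, a replicate block, leaving out each library, and leaving out the pair of libraries that stood apart (wild-type naive 2, knockout morphine 3). Counts were simulated for the wild-type morphine comparison (18111 genes, 50 changed genes per fold). There edgeR found 52% of the genes changed 1.25-fold, 82% at 1.5-fold, 96% at 2-fold and 100% at 4-fold. Of 172 calls 7 were false. The data gave 798 calls in that comparison, so the share found there may differ.

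The members and gene lists were chosen with earlier results of these data known. All 10 members are named; of the wider list, up to the 6 called genes with the smallest p in a comparison; for called members, the 3 genes with the highest r among those with mean log2 CPM of at least 1, without predicted genes and pseudogenes; and up to 3 markers per list. The called wider genes beyond 6 in a comparison, the uncalled pathway genes, and the tissue check genes were named after their values were seen. Some genes of these lists are not reported here.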

Additional observations from a re-analysis of the deposited data

Results flagged for a closer look

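Dixon's ratio, a gap divided by the range, was applied to 13 genes in each of the 4 groups, 52 groups of 4 libraries in all, and 2 exceeded the critical value for 4 values; chance alone gives about 1 in 20. Notch3 in knockout naive 1 was 35.38 CPM, the lowest of its group, where the others lay between 38.94 and 39.23 CPM (ratio 0.923). Hes5 in wild-type naive 4 was 3.517 CPM, where the others lay between 5.905 and 6.155 CPM (ratio 0.905). The cause of neither was tested.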

How the results depend on the processing

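Over 60 log2 fold changes of the members, 1047 of 1100 values under the alternatives kept direction and side of the threshold, 12 lost the call, 6 gained one and 35 changed sign; every value that changed sign was uncalled, before and after. In the wild-type comparison the ranges without 1 library were -0.1238 to 0.1757 for Notch2, -0.0239 to 0.082 for Notch3, -0.063 to 0.0596 for Dll1 and -0.1193 to 0.0093 for Hey2, and without both wild-type naive 2 and knockout morphine 3 Notch2 was at 0.1759, Dll1 at -0.0183 and Hey2 at 0.0095. In knockout Jag2 ran from -0.0518 to 0.013. Between naive genotypes the ranges were -0.2179 to 0.0847 for Notch2 (0.0847 without both), -0.0117 to 0.1125 for Dll1 and -0.0422 to 0.2224 for Dll4. Between morphine genotypes they were -0.0259 to 0.0685 for Notch3 (-0.0017 with no filter, -0.0047 with limma-voom), -0.0067 to 0.0559 for Jag2 and -0.4063 to 0.0066 for Hes5 (0.0066 without both); Notch4 ran from -0.0862 to 0.1463 (-0.0009 with no filter, -0.0503 with limma-voom, -0.0879 without both). For the interaction Hes5 ran from -0.2871 to 0.1743 (0.0022 with the stricter filter, 0.0513 without both), Notch4 from -0.0277 to 0.2052 (-0.0208 with limma-voom, -0.043 without both), and Notch2 was at -0.0657 without both. Hes5 on average lost its call with no filter (-0.53, adjusted p = 0.0704) and without both libraries (-0.43, adjusted p = 0.0924). Leaving out both libraries gave 2 members called in knockout (Jag1 and Hes1), and leaving out 1 library gave 1 to 3; the 2 wild-type calls, and the 0 calls between genotypes and for the interaction, held under every alternative run.

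For the 50 other pathway genes, the wild-type count of 7 became 3 with only the groups compared, 3 with the replicate block, 4 without both libraries, and 1 to 8 without 1 library. In knockout it was 4 to 11 without 1 library. Between naive genotypes it became 1 with DESeq2 or only the groups compared and 0 to 1 without 1 library. Between morphine genotypes it became 0 with only the groups compared and 0 to 1 without 1 library.

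Over all genes, the wild-type count of 798 became 1242 with DESeq2, 410 with only the groups compared, 505 with the replicate block, and 378 to 1252 without 1 library; the knockout count of 2082 became 1037 to 2260 without 1 library. Between naive genotypes 164 became 376 with DESeq2, 92 with the replicate block, 104 without both libraries and 68 to 210 without 1 library. Between morphine genotypes 96 became 202 with DESeq2, 236 without both libraries and 49 to 114 without 1 library. For the interaction 0 became 1 with no filter, 107 with DESeq2, 64 without both libraries and 0 to 56 without 1 library. The causes were not tested.

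Libraries with the same replicate number did not deviate together (correlations of -0.16 to 0.13), so the numbers were not taken as pairs, and the replicate block changed no call of a member. P-values measure the spread between pools of 2 animals. Dll4 held the fewest counts of the members, 17 to 91 per library.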
